A study of Mus musculus with 2 samples.

Results

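A set of 10 genes that mark injured or dedifferentiated kidney tubule, of the 32285 genes counted, was followed through nuclei of 5/6 nephrectomy and sham-operated mouse kidneys. The genes were taken by symbol from both libraries: Havcr1, Cdh6 and Itgb6 at the cell surface, Lcn2, Spp1 and Clu as secreted proteins, Krt20 and Dcdc2a in the cytoskeleton, and Sox9 and Sox4 as transcription factors. The nephrectomy library came from male T1+/+ mice, operated on at 11 weeks of age, from which the right kidney was taken out and, 1 week later, both poles of the left kidney were tied off. The sham library came from control animals of the same listed age, 11 weeks, also with 1 week between operations. In these animals both flanks were opened and closed again around an exposed kidney. Tissue was collected 4 weeks after surgery, frozen, and its nuclei were sequenced on the 10x Genomics Chromium system. The labels do not say how many mice went into a library or which region of the kidney was sampled.

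An injured proximal tubule cell loses transporters and polarity, spreads over the bared basement membrane and takes up genes of the developing nephron, and its repair is either completed or stalls in an inflammatory state marked by Vcam1. Havcr1 (kidney injury molecule 1) and Lcn2 (neutrophil gelatinase-associated lipocalin) are the best known markers of the acute phase, while Spp1, Clu and several of the others are also made in healthy distal segments. A marker of this kind can therefore change in a whole kidney through its segments or through a small injured population.

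Each group had 1 library, with 28284727 unique molecular identifiers (UMIs) over 3299 nephrectomy barcodes and 21365116 over 3084 sham barcodes. Median depth was 6844 UMIs in the nephrectomy library and 5140 in the sham library, the median mitochondrial share was 0.986% and 1.39%, and 2 barcode sequences occurred in both. After filters 3041 nephrectomy and 2835 sham nuclei remained. Values are UMIs per 1000000 (CPM) with 95% intervals that cover counting error only, because nothing here measures the spread between mice. A gene was called higher or lower at a ratio of nephrectomy to sham CPM of at least 1.5 either way, given at least 20 UMIs over both libraries. Nuclei were classed by marker genes other than the 10, and class names mean nuclei like that type.

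All 10 are protein-coding genes with no overlapping counted gene, and lie on mm10 chromosomes 2 (Lcn2, Itgb6), 5 (Spp1), 11 (Havcr1, Krt20, Sox9), 13 (Dcdc2a, Sox4), 14 (Clu) and 15 (Cdh6). RefSeq promoter windows on GRCm38.p6 were matched for 8 of them. The windows of 4 genes are shown because Spp1 and Itgb6, the 2 most abundant members, differed in opposite directions in proximal tubule-like nuclei, and Havcr1 and Dcdc2a were high in a small group of proximal tubule nuclei marked by Vcam1. Each reads 5′ to 3′ on the gene's strand up to the transcript start or first annotated exon, with a motif match in capitals.
Spp1, chr5:104434861-104435110, plus strand: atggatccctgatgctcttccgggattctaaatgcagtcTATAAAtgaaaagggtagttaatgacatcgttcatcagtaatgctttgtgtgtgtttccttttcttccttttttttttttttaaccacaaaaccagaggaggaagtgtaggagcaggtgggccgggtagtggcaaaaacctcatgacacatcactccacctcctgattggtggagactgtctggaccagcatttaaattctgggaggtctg
Itgb6, chr2:60722644-60722853, minus strand: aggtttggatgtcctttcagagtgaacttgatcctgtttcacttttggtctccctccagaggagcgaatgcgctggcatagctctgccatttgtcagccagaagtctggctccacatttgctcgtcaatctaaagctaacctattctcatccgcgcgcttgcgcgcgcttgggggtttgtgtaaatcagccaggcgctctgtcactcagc
Havcr1, chr11:46739973-46740060, plus strand: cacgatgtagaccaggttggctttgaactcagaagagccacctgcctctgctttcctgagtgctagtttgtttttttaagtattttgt
Dcdc2a, chr13:25055754-25056003, plus strand: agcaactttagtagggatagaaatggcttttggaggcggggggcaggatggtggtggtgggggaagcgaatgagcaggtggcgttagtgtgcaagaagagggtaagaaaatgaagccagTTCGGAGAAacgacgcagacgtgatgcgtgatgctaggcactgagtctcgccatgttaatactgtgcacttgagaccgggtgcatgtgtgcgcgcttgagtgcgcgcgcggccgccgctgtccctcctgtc
The full windows of 250 bases before the start, longer than the runs shown for Itgb6 and Havcr1, were searched on both strands for AP-1 (TGANTCA, in 6.75% of 32851 promoters), SOX (AACAAT, 9.42%), a TATA box (TATAAA, 12.4%), an NF-kappaB motif (0.356%) and STAT (TTCNNNGAA, 7.02%). Matches were a TATA box in Spp1, 211 bases before the start, a STAT-type match in Dcdc2a at 131 bases, and a TATA box in Krt20 at 29 bases. The windows of Havcr1, Lcn2, Sox4, Cdh6 and Itgb6 held no match. A match is a run of letters only. The Havcr1 window belongs to the most upstream of 3 listed starts. It lies inside the annotated gene, and an annotated exon begins after the 88 bases shown. The Lcn2 window begins within an annotated exon.

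Over whole libraries, 6 of 9 measured members were higher in the nephrectomy library and 1 was lower, against 9.35% of all 17356 genes called higher and 10.8% called lower. Havcr1, the phosphatidylserine receptor with which tubule cells engulf dead neighbours, had 71 UMIs in nephrectomy nuclei and 11 in sham nuclei, which made 2.87 CPM (2.24 to 3.62) against 0.587 CPM (0.293 to 1.05) and a ratio of 4.89 (2.58 to 10.2). Lcn2, an iron-siderophore carrier, had 111 UMIs in nephrectomy nuclei and 13 in sham nuclei, or 4.49 CPM (3.69 to 5.41) against 0.693 CPM (0.369 to 1.19), 6.48-fold higher (3.64 to 12.5). Both were rare transcripts, found in 35 and 76 nephrectomy nuclei and in 10 and 13 sham nuclei. Spp1 (osteopontin), an integrin and CD44 ligand, was abundant in both libraries, at 451 CPM (442 to 459) in nephrectomy and 248 CPM (241 to 256) in sham nuclei, a ratio of 1.81 (1.75 to 1.88). Its UMIs were found in 81.7% of nephrectomy and 58.7% of sham nuclei.

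Cdh6 (K-cadherin), an adhesion protein of the forming nephron, had 31.3 CPM in nephrectomy and 16.42 CPM in sham nuclei, a ratio of 1.91 (1.67 to 2.18). Dcdc2a, a microtubule-binding doublecortin-domain protein, had 44.5 CPM and 24.3 CPM, a ratio of 1.84 (1.64 to 2.05), and Sox9, a factor of nephron growth and regeneration, had 40 nephrectomy and 13 sham UMIs, a ratio of 2.33 (1.22 to 4.75). These 3 depended on few nuclei. Without the 23 nephrectomy and 6 sham nuclei of the Vcam1 side of the proximal tubule, and the 21 and 7 parietal epithelial-like nuclei, the log2 ratio was 0.31 for Cdh6 (0.93 with them), 0.47 for Dcdc2a (0.88) and 0.84 for Sox9 (1.22), so Cdh6 and Dcdc2a were then under 1.5-fold. Havcr1 stood at 1.55 without them against 2.29 with them, and remained called.

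Itgb6, the beta chain of an integrin that activates latent TGF-beta, was the exception in direction. It had 118 CPM (114 to 122) in nephrectomy and 357 CPM (349 to 366) in sham nuclei, 3.02-fold lower. Clu (clusterin), a secreted chaperone, had 36.9 and 28.1 CPM (ratio 1.31, 1.18 to 1.46), and Sox4, a factor of the developing nephron, had 13.2 and 14.0 CPM (0.944, 0.800 to 1.11), so neither reached 1.5-fold. Krt20, a keratin of umbrella cells of the urothelium and of injured tubules, had 8 UMIs in 8 nephrectomy nuclei and 0 in sham nuclei, at least 2.02-fold higher against a floor of 3 UMIs, under the minimum for a call.

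**Figure D1:**
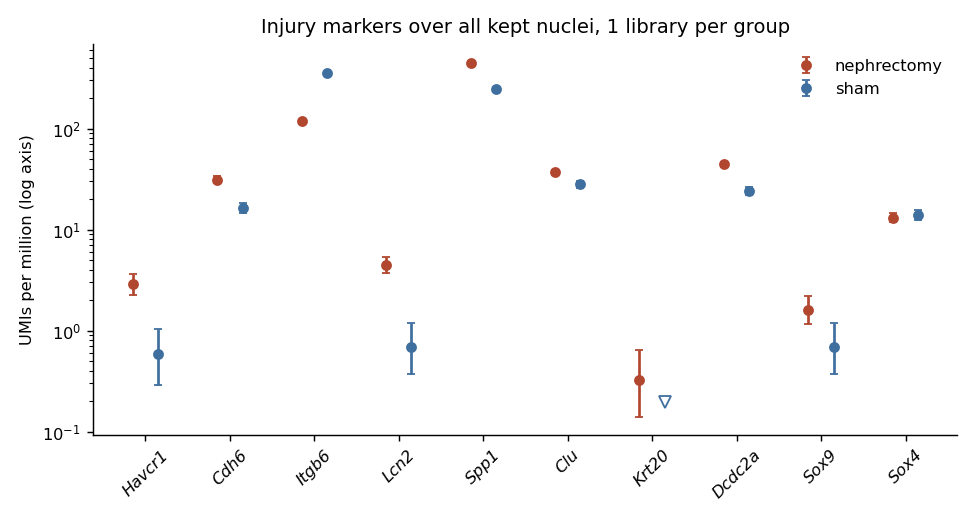
CPM of the 10 genes in whole libraries on a log axis, nephrectomy left of sham in each pair, with 95% Poisson intervals. An open triangle marks the upper limit of a library with 0 UMIs. Lcn2 (4.49 against 0.693 CPM) and Havcr1 (2.87 against 0.587 CPM) stand widely apart, and Itgb6 is the gene with the clear opposite order.

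The 10 transcripts were spread very differently over the kidney. Clu was a gene of the distal convoluted or connecting tubule-like class, which held 45.1% of its nephrectomy and 44.0% of its sham UMIs, while 52.8% of nephrectomy and 76.9% of sham Itgb6 UMIs lay in proximal tubule-like nuclei. Lcn2 lay most in thick ascending limb-like nuclei, with 38 of 111 nephrectomy and 7 of 13 sham UMIs. Cdh6 had 30.1% of its nephrectomy UMIs in the 21 parietal epithelial-like nuclei, the lining of Bowman's capsule, where it reached 1531 CPM in nephrectomy and 408 CPM in sham nuclei. Dcdc2a was also high there, at 1176 CPM (179 UMIs) in nephrectomy and 238 CPM (7 UMIs) in sham nuclei, and again in podocyte-like nuclei, at 326 and 347 CPM. Havcr1 had 0 UMIs in podocyte-like, parietal epithelial-like and principal-like nuclei of either library.

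Unnamed nuclei and classes with fewer than 30 nuclei in either library were left out of the ranking, and among the remaining 9 classes Spp1 was highest in thick ascending limb-like nuclei (714 CPM nephrectomy, 549 CPM sham). The smaller thin limb-like class had 2358 and 1079 CPM. Among the same 9 classes Sox4 was highest in intercalated-like nuclei in the nephrectomy library (55.8 CPM, 41.3 to 73.7) and in principal-like nuclei in the sham library (62.2 CPM, 40.6 to 91.2). Endothelial-like nuclei, at 40.9 and 45.3 CPM, did not differ from these beyond counting error. Proximal tubule-like nuclei, at 3.20 and 3.82 CPM, were lower than all 3.

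**Figure D2:**
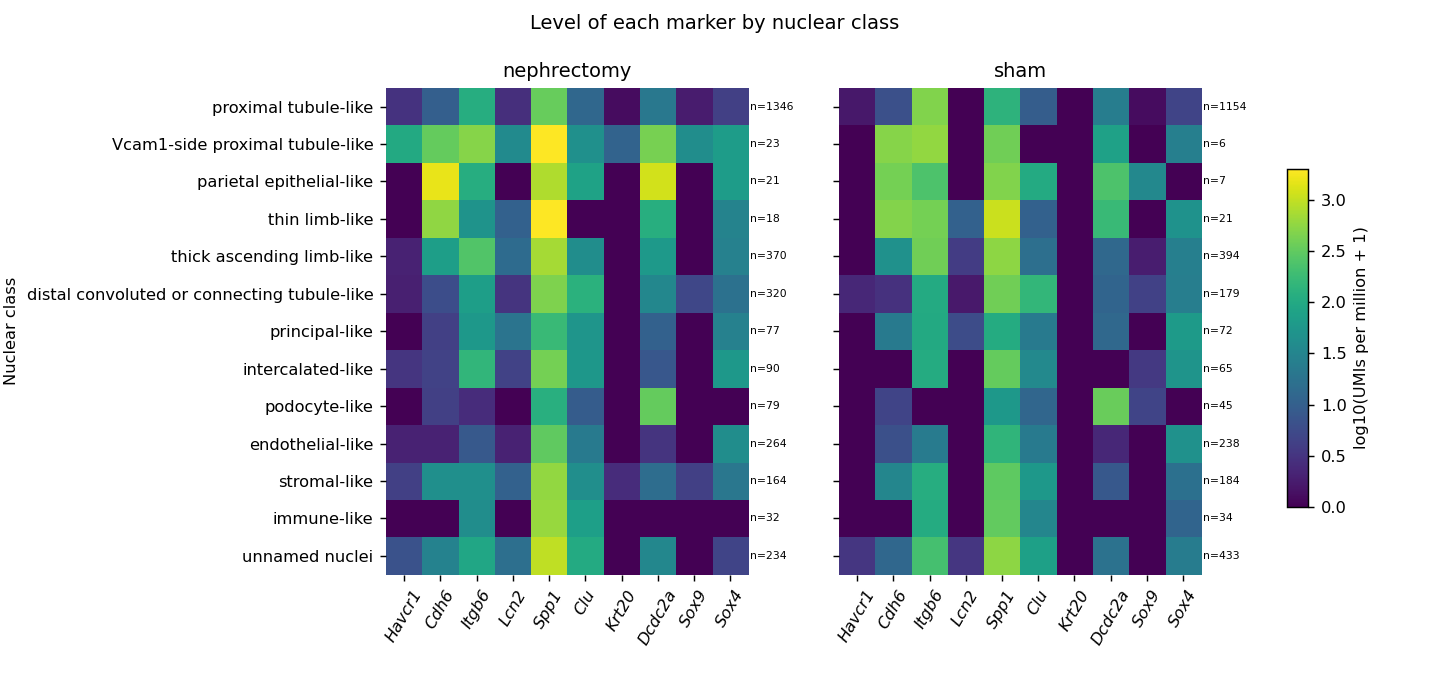
Levels of each gene by nuclear class, coloured by log10(CPM + 1), nephrectomy left of sham, with the number of nuclei at the right of each row. Itgb6 is high in proximal tubule-like nuclei (112 against 468 CPM), Clu in distal convoluted or connecting tubule-like nuclei (128 against 153 CPM) and Dcdc2a in podocyte-like nuclei (326 against 347 CPM).

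The class of proximal tubule-like nuclei (1346 nephrectomy, 1154 sham), which reabsorbs most of the filtrate, excluded the Vcam1 side. In it 4 of 8 measured members were higher and 1 lower, with 11.5% of 14721 genes called higher and 11.5% called lower. Spp1 had 344 CPM (334 to 354) in nephrectomy and 136 CPM (129 to 143) in sham nuclei, 2.53-fold higher (2.38 to 2.68). Itgb6 had 112 CPM (107 to 118) in nephrectomy and 468 CPM (455 to 481) in sham nuclei, 4.17-fold lower. Havcr1 had 28 UMIs in 12 nephrectomy nuclei, 10 of them in a single nucleus, and 7 UMIs in 7 sham nuclei, a ratio of 3.20 (1.37 to 8.68). Lcn2 had 24 UMIs in 22 nephrectomy nuclei and 0 in sham nuclei, at least 6.40-fold higher against the floor of 3 UMIs. The 2 acute-injury markers were thus detected in very few proximal tubule-like nuclei of either library.

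Cdh6 was 1.64-fold higher (1.20 to 2.27), with 8.95 CPM in nephrectomy and 5.45 CPM in sham nuclei. Clu had 11.7 and 8.54 CPM (1.37, 1.06 to 1.79), Dcdc2a 275 and 261 UMIs (0.843, 0.709 to 1.00) and Sox4 3.20 and 3.82 CPM (0.839, 0.537 to 1.31). Sox9 (11 and 3 UMIs) and Krt20 (4 and 0 UMIs) were under the minimum.

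Proximal tubule clusters were uneven between libraries: cluster 0 held 555 nephrectomy and 115 sham nuclei and cluster 10 held 1 and 235. Spp1 and Itgb6 kept their directions within the clusters that both libraries shared. Itgb6 was lower in each of the 4 clusters with 50 or more nuclei from both libraries, at ratios of 0.586 (cluster 0), 0.252 (cluster 1, S1-like), 0.219 (cluster 2) and 0.437 (cluster 7, S3-like). Spp1 was higher in all 4, with ratios of 4.42, 1.72, 5.62 and 2.33. With these clusters weighted equally, the log2 ratio was 1.80 for Spp1, -1.54 for Itgb6 and 1.26 for Clu, which then passed 1.5-fold. The Clu value was uneven, with ratios of 1.69 (cluster 0), 1.498 (cluster 1), 4.21 (cluster 2) and 0.538 (cluster 7, 9 nephrectomy and 18 sham UMIs). Cluster 2 was shallow, with a median of 1337 UMIs in nephrectomy and 2990 in sham nuclei, and Spp1 reached 1099 CPM there in nephrectomy nuclei against 196 CPM in sham nuclei. Cluster 2 also held 10 of the 24 Lcn2 UMIs of proximal tubule-like nephrectomy nuclei, at 17.96 CPM. Cluster 0 held 9 (1.30 CPM), cluster 7 held 4 and cluster 1 held 1 (0.235 CPM). Lcn2 was under the minimum for a call in each of these clusters. The Cdh6 difference lay most in cluster 1, with 44 nephrectomy and 4 sham UMIs (ratio 7.55), while S3-like cluster 7 had 26.0 and 20.4 CPM. Havcr1 lay most in cluster 7, with 21 nephrectomy and 5 sham UMIs (ratio 4.52, 1.66 to 15.3). These UMIs came from only 5 nuclei per library, and a single nephrectomy nucleus gave 10. The share of cluster 7 nuclei with Havcr1 did not differ detectably (3.09% and 2.55%, a difference of 0.535 points, -3.19 to 4.73).

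At a matched depth of 2000 UMIs per nucleus, 1 member was found in a larger share of proximal tubule-like nephrectomy nuclei and 1 in a smaller share, where 11.4% and 10.5% of genes were so called by an interval of the difference without 0. Spp1 was found in 48.9% of 1135 nephrectomy and 25.1% of 997 sham nuclei, a difference of 23.8 points (19.8 to 27.7). Itgb6 was found in 16.6% of nephrectomy and 43.6% of sham nuclei, a difference of -27.1 points (-30.8 to -23.3). Shares of the other 8 did not differ detectably at this depth. Lcn2 was found in 0.441% of nephrectomy nuclei and in 0 of 997 sham nuclei, which allows up to 0.301%, and Havcr1 in 0.176% and 0.100%.

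Endothelial-like nuclei, which should lack tubule transcripts, gauged free RNA in the droplets, at median depths of 3254.5 UMIs in nephrectomy and 2823 in sham nuclei against 9273 and 8503 in proximal tubule-like nuclei. At 2000 UMIs Spp1 was found in 40.7% of 209 nephrectomy and 23.6% of 178 sham endothelial-like nuclei, a difference of 17.1 points (7.75 to 25.9), and their summed levels were 310 and 145 CPM. The proximal tubule levels of 344 and 136 CPM lay close to these, and the part of free RNA in the Spp1 difference was not tested. Podocyte-like nuclei had Spp1 in 24.4% of 78 nephrectomy and 4.65% of 43 sham nuclei. Itgb6 was found in 0.957% of nephrectomy and 3.93% of sham endothelial-like nuclei, and in 0 of 78 and 0 of 43 podocyte-like nuclei, far under its proximal tubule shares. Clu, at 5.74% and 3.93% of endothelial-like nuclei, was not below its proximal tubule shares of 3.61% and 2.61%, so no Clu share in proximal tubule-like nuclei is read as expression, and the part of free RNA was not tested. Havcr1, Lcn2, Krt20 and Sox9 were found in 0 endothelial-like nuclei, which allows up to 1.44% of nephrectomy and 1.69% of sham nuclei. These limits lie above the Havcr1 and Lcn2 shares of proximal tubule-like nuclei, so the comparison cannot tell these 2 genes apart from free RNA. Before thinning, nephrectomy endothelial-like nuclei held 1 UMI of Havcr1 and 1 of Lcn2.

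**Figure D3:**
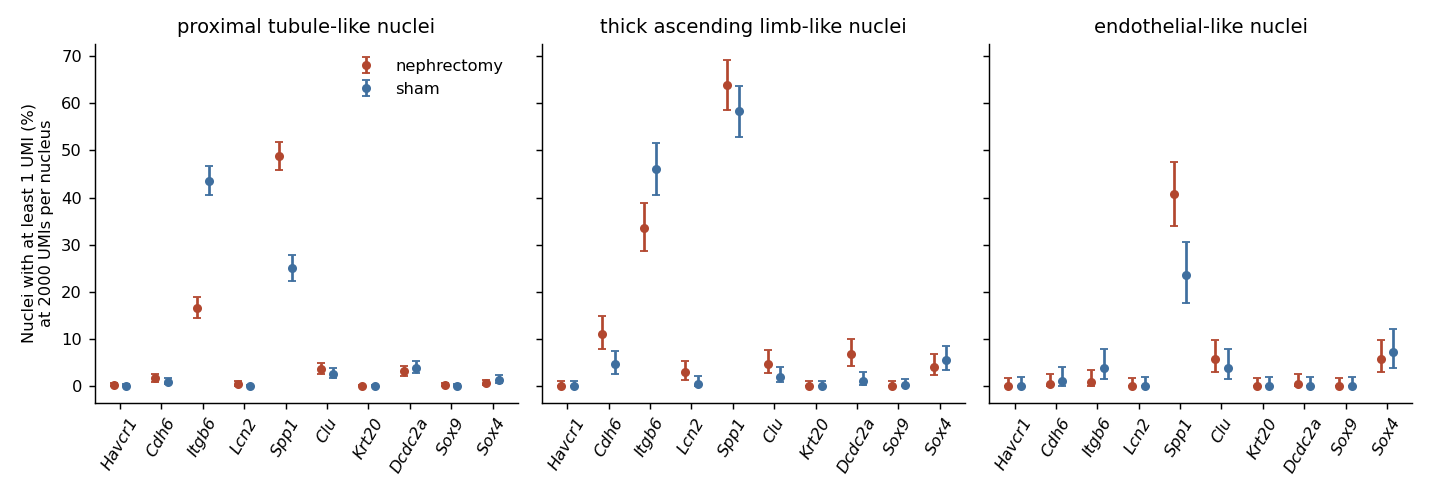
Share of nuclei with at least 1 UMI after each nucleus was thinned to 2000 UMIs, in percent with 95% Clopper-Pearson intervals, nephrectomy left of sham, in 3 classes. Spp1 and Itgb6 separate in opposite directions in proximal tubule-like nuclei (48.9% against 25.1%, and 16.6% against 43.6%), and Dcdc2a, Cdh6 and Lcn2 are higher in nephrectomy nuclei of the thick ascending limb-like class.

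The thick ascending limb, which dilutes urine and makes uromodulin, had its own set. Of 7 measured members 3 were higher and 1 lower, against 9.65% and 12.1% of 12078 genes. Dcdc2a had 58.0 CPM (49.5 to 67.6) in 370 nephrectomy nuclei and 12.1 CPM (8.09 to 17.4) in 394 sham nuclei, 4.80-fold higher (3.22 to 7.39), with 39 of its 165 nephrectomy UMIs in 1 nucleus. Lcn2 had 13.4 CPM (9.46 to 18.3) and 2.92 CPM (1.17 to 6.01), 4.58-fold higher (2.02 to 12.2). Clu had 116 and 36 UMIs, 2.72-fold higher (1.86 to 4.07). All 3 were higher in each of the class's clusters, with ratios of 4.25 (cluster 4) and 4.80 (cluster 8) for Dcdc2a, 4.49 and 4.83 for Lcn2 and 2.69 and 2.12 for Clu.

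Cdh6 lay just under the limit, with 69.3 CPM in nephrectomy and 46.2 CPM in sham nuclei (ratio 1.498, 1.18 to 1.91), and Itgb6 just past it, with 254 and 386 CPM (1.52-fold lower). Cdh6 was almost confined to cluster 4 in these nuclei, at 120 and 90.0 CPM, against 4.01 and 7.104 CPM in cluster 8. Spp1 had 714 and 549 CPM (1.30) and Sox4 27.1 and 25.8 CPM (1.05). Havcr1 had 3 nephrectomy and 0 sham UMIs, Sox9 0 and 2, and Krt20 none, so 3 of the 10 were all but missing from this segment.

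At 2000 UMIs, 3 members were found in a larger share of thick ascending limb-like nephrectomy nuclei and 1 in a smaller share, where 4.83% and 5.49% of genes were so called. Dcdc2a was found in 6.85% of 336 nephrectomy and 1.17% of 341 sham nuclei, a difference of 5.67 points (2.80 to 8.97). Cdh6 was found in 11.01% and 4.69% (6.32 points, 2.28 to 10.5) and Lcn2 in 2.98% and 0.587% (2.39 points, 0.351 to 4.84). Itgb6 was found in 33.6% and 46.0% (-12.4 points, -19.6 to -5.04), and the intervals for Spp1 and Clu included 0.

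In distal convoluted or connecting tubule-like nuclei (320 nephrectomy, 179 sham), 1 of 5 measured members was higher and 1 lower, against 10.7% and 13.2% of 11271 genes. Dcdc2a had 104 nephrectomy and 16 sham UMIs (ratio 3.06, 1.80 to 5.55), 30 of them in 1 nephrectomy nucleus, and Sox4 had 15.8 and 25.1 CPM (0.632, 0.407 to 0.988). Clu, most abundant in this class, had 128 CPM (116 to 141) in nephrectomy nuclei against 153 CPM (134 to 174) in sham nuclei, and its ratio of 0.834 (0.708 to 0.983) did not reach 1.5-fold. In principal-like nuclei 2 of 4 measured members were higher and 2 lower (11.4% and 17.7% of genes), and Clu was 2.37-fold higher (1.10 to 5.64), with 32 nephrectomy and 9 sham UMIs. Sox4 was lower there, at 27.1 and 62.2 CPM (0.435, 0.222 to 0.833).

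Outside these segments Spp1 was the member called higher most often. It was higher in endothelial-like nuclei (310 and 145 CPM, ratio 2.13), where 1 of 4 measured members was higher and 1 lower against 10.1% and 11.9% of genes. In stromal-like nuclei it had 589 and 304 CPM (1.94), with 1 of 5 higher and 1 lower against 13.2% and 18.5%. Podocyte-like nuclei (121 and 57.2 CPM, 2.11) had 1 of 2 higher and 0 lower against 17.1% and 13.6%. Immune-like nuclei (618 and 316 CPM, 1.95) had Spp1 as their 1 measured member, against 21.8% higher and 18.2% lower. Itgb6 was the member called lower in endothelial-like (7 and 17 UMIs, 0.325) and stromal-like nuclei (27 and 96 UMIs, 0.376). These pairs of directions match those in proximal tubule-like nuclei. Intercalated-like nuclei had 1 of 4 higher and 0 lower (16.5% and 12.7%), Clu at 54.6 and 34.7 CPM (1.57, 0.854 to 3.09).

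The Vcam1 side of the proximal tubule was a sub-cluster of 23 nephrectomy and 6 sham nuclei that leads with Vcam1 and Kcnip4, the pattern known from tubule cells whose repair has stalled. Its 6 sham nuclei had no UMI of Kcnip4 or Ccl2, and parietal epithelial markers (1284 CPM) exceeded Vcam1-side markers (403 CPM) in them, so the name rests on the nephrectomy nuclei. The 10 genes were not used to form clusters, but the setting of a cluster against its neighbours is a description, and nuclei of 1 library are not replicates. All 10 were higher in these 23 nuclei than in the other 1346 proximal tubule-like nephrectomy nuclei, by 3.79-fold (Clu) to 51.1-fold (Sox9). Many other genes were higher too. Of 13669 genes with at least 20 UMIs, 41.8% were at least 1.5-fold higher and 14.1% lower, with a median log2 ratio of 0.39 against 4.38 for the 9 members with that many UMIs, and the floor of 3 UMIs raises rare genes in so few nuclei. Havcr1 had 29 UMIs there, 98.9 CPM against 2.04 CPM, so these 23 nuclei held 40.8% of all nephrectomy Havcr1 UMIs. Cdh6 was at 331 against 8.95 CPM (37.0-fold), Dcdc2a at 416 CPM (20.8-fold) and Spp1 at 2485 against 344 CPM (7.23-fold). Itgb6 was also higher, at 508 against 112 CPM (4.53-fold), close to the 468 CPM of sham proximal tubule-like nuclei. The 11 Lcn2 UMIs of these nuclei lay in 1 nucleus, and Krt20 had 3 UMIs.

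Genes of mature proximal tubule were lower in the same nuclei. Of 30 identity genes, 29 were at least 1.5-fold lower there, against the 14.1% of all genes, with a median ratio of 0.294 and a highest of 0.712. Several of the 30 were also markers used to name the proximal tubule-like class, so the count is not independent of the naming. The phosphate transporter Slc34a1 stood at 0.238 of its level in other proximal tubule-like nephrectomy nuclei, and the endocytic receptor Lrp2 at 0.561. Median UMIs of identity genes per 2000 were 19 in these nuclei and 65 in the other proximal tubule-like nephrectomy nuclei. Proximal tubule markers still summed to 3996 CPM against 11697 CPM. Parietal epithelial markers summed to 794 CPM in these nuclei, 19.0 CPM in other proximal tubule-like nephrectomy nuclei and 3593 CPM in parietal epithelial-like ones, with 0 of 5 markers at 0 UMIs. Blood endothelial markers summed to 320 against 33.6 CPM (0 of 8 at 0 UMIs) and fibroblast markers to 78.4 against 13.2 CPM (3 of 7 at 0 UMIs in the 23 nuclei). The part of these markers in the result was not tested. Havcr1 had 0 UMIs in the parietal epithelial-like nuclei.

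**Figure D4:**
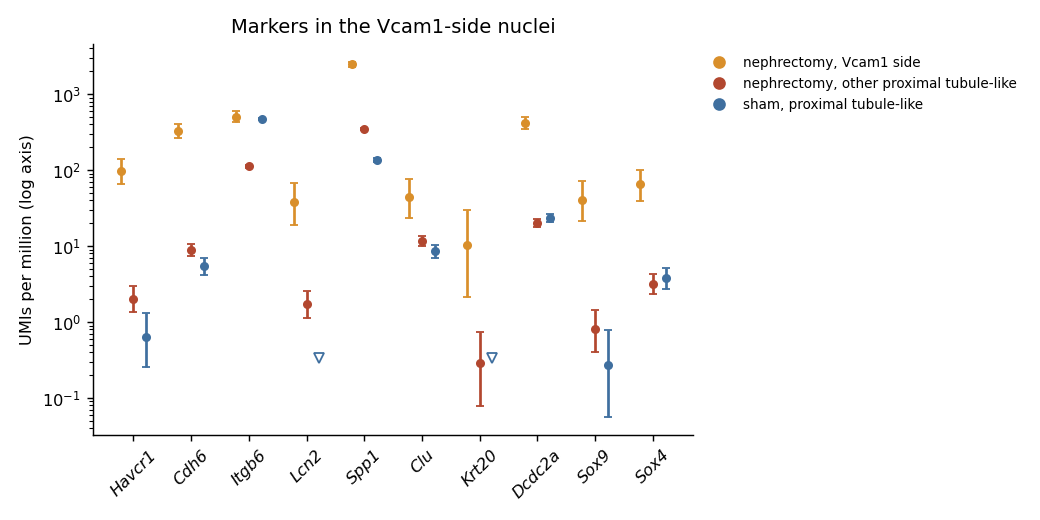
CPM of the 10 genes on a log axis in the 23 Vcam1-side nephrectomy nuclei, in other proximal tubule-like nephrectomy nuclei and in proximal tubule-like sham nuclei, from left to right, with 95% Poisson intervals and open triangles for the upper limit at 0 UMIs. Every gene is higher on the Vcam1 side than in other nephrectomy nuclei, for example Havcr1 at 98.9 against 2.04 CPM and Sox9 at 40.9 against 0.800 CPM.

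Several members in 1 nucleus were rare, and the 23 Vcam1-side nuclei gave 15 of the 31 such nephrectomy nuclei. At 2000 UMIs, 31 of 1158 proximal tubule-like nephrectomy nuclei with that side included (2.68%) held at least 3 members, against 7 of 1001 sham nuclei (0.699%), a difference of 1.98 points (0.901 to 3.13). Without the Vcam1 side the numbers were 16 of 1135 and 7 of 997, a difference of 0.708 points (-0.209 to 1.65). On the Vcam1 side 0 of 4 sham nuclei held at least 3. The difference was 0.927 points (-0.192 to 2.06) with doublets kept and 0.380 points (-0.115 to 0.939) at 1000 UMIs, so it was not detectable in either. Without Spp1 and Itgb6 the difference was 0.345 points (-0.0912 to 0.885), since 4 nephrectomy and 0 sham nuclei held 3 of the other 8. Outside the Vcam1 side, at least 2 of those 8 were found in 6 of 1135 nephrectomy and 5 of 997 sham nuclei. That difference was 0.0271 points (-0.699 to 0.710). The pairs that follow include the Vcam1 side, where Havcr1, Cdh6 and Dcdc2a were all high. Among nephrectomy nuclei, Cdh6 was found in 4 of 6 Havcr1-positive nuclei (66.7%) and in 27 of 1152 others (2.34%). Dcdc2a was found in 10 of 31 Cdh6-positive nuclei (32.3%) and in 39 of 1127 others (3.46%). Spp1 and Itgb6 showed no such pairing: Itgb6 was found in 17.2% of Spp1-positive and 17.7% of Spp1-negative nephrectomy nuclei, and in 43.7% and 43.8% of sham nuclei.

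Proximal tubule identity was then set beside the 8 genes other than Spp1 and Itgb6. The median of identity-gene UMIs per 2000 was 19 in 20 nephrectomy nuclei with at least 2 of the 8 and 65 in 1032 nephrectomy nuclei with 0. Of those 20 nuclei 14 lay on the Vcam1 side, and the other 6 had a median of 28.5. In sham nuclei it was 52 in 5 nuclei with at least 2 and 59 in 914 with 0. In the thick ascending limb-like class, 77 of 336 nephrectomy nuclei (22.9%) and 47 of 341 sham nuclei (13.8%) held at least 1 of the 8, a difference of 9.13 points (3.31 to 14.9). At least 2 were found in 15 (4.46%) and 2 (0.587%), a difference of 3.88 points (1.56 to 6.68). Cdh6 was found in 7 of 23 Dcdc2a-positive nephrectomy nuclei (30.4%) and in 30 of 313 others (9.58%). Endothelial-like nuclei held at least 1 of the 8 in 26 of 209 nephrectomy (12.4%) and 22 of 178 sham nuclei (12.4%), close to the sham thick ascending limb share of 13.8%. They held 2 of the 8 in 0 of 209 and 0 of 178.

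Another 8 gene lists were read beside the members in proximal tubule-like nuclei outside the Vcam1 side, where all measured genes had a median log2 ratio of 0.03. Of those 14721 genes, 11.5% were called higher and 11.5% lower, and list counts near these shares are not read as differences. The lists were chosen with earlier results of these data known, so their counts are not independent support. Several failed-repair genes were also markers used to name the Vcam1 side. Failed-repair and inflammatory tubule genes had 11 of 21 higher and 4 lower (median 0.60), led by complement C3 (149 nephrectomy and 14 sham UMIs, ratio 8.52) and the adhesion receptor Vcam1 (42 and 7 UMIs, 4.80). Ccn1 (0.246) and Adamts1 (0.460), an extracellular matrix protein and a matrix protease, were lower. Identity genes had 2 of 30 higher and 5 lower (median 0.09), with the sulfate transporter Slc13a1 at 2.66 and Lrp2 at 0.592. Keratins and cytoskeletal genes had 0 of 17 higher and 1 lower, the intermediate filament Vim at 0.600 (15 and 20 UMIs).

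Proliferation genes had 0 of 14 higher and 8 lower (median -0.70), among them Rrm2 (0.311) and Cenpf (0.416). In distal convoluted or connecting tubule-like nuclei 5 of 8 were higher and 0 lower (median 1.67), against 10.7% and 13.2% of all genes. The difference between the 2 segments was not tested. There Top2a, a DNA topoisomerase of dividing cells, had 62 UMIs in 7 of 320 nephrectomy nuclei, 29 of them in 1 nucleus, and 0 in 179 sham nuclei. Progenitor-type genes had 3 of 18 higher and 0 lower, with Wt1 at 2.22 and Wnt4 at 1.66. Immediate-early and stress genes had 1 of 15 higher (Fosl2, 1.68) and 2 lower, the heat-shock genes Hspa1b (0.188) and Hspa1a (0.190). Senescence genes had 0 of 9 either way. Receptors and partners of the 10 products had 7 of 21 higher and 1 lower, led by the integrin chain Itga4 (23 and 4 UMIs, 4.603).

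**Figure D5:**
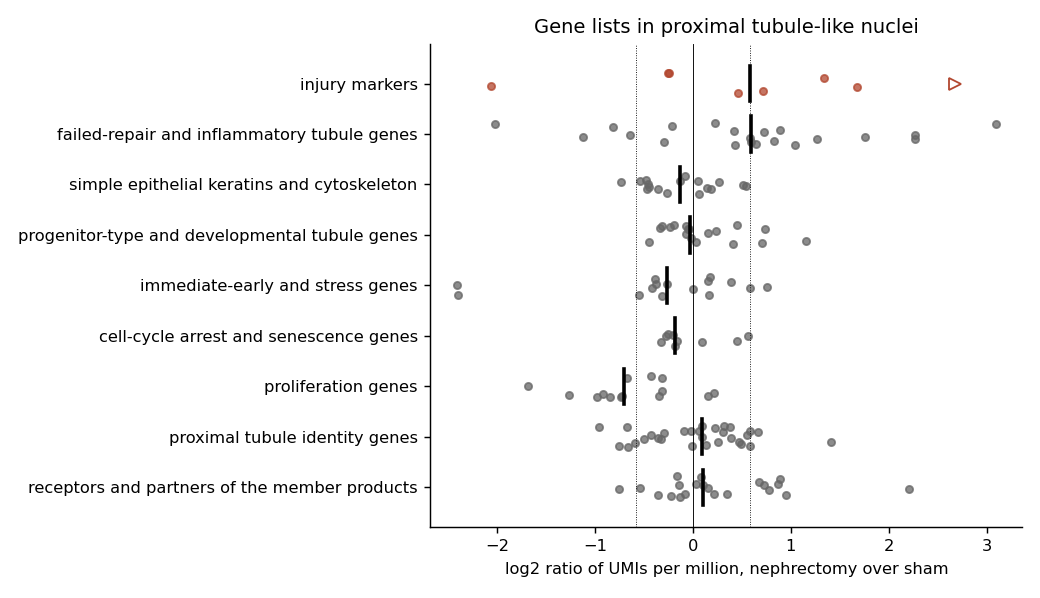
Log2 ratio of nephrectomy to sham CPM in proximal tubule-like nuclei for the members and 8 further lists, each point a gene with at least 20 UMIs, with dotted lines at 1.5-fold. Failed-repair genes spread to the right (median 0.60) and proliferation genes to the left (median -0.70), and the open triangle marks the lower bound of Lcn2.

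In thick ascending limb-like nuclei failed-repair genes had 7 of 14 higher and 0 lower (median 0.60), led by ceruloplasmin (Cp, 89 nephrectomy and 21 sham UMIs, ratio 3.58). Of all 12078 genes in this class, 9.65% were called higher and 12.1% lower. Progenitor-type genes had 5 of 15 higher and 1 lower, with Ncam1 at 65 and 8 UMIs (6.86) and the nephron factor Pax8 at 238 and 150 CPM (1.58). Keratins and cytoskeletal genes had 4 of 13 higher, with Krt18 at 3.09, and 2 lower, Actb (0.642) and Actg1 (0.647). Immediate-early genes had 7 of 14 lower and 1 higher, Egr1 with 23 and 2 UMIs. The failed-repair list was also higher outside the tubule. It had 4 of 5 genes higher in podocyte-like nuclei (17.1% of all genes) and 4 of 5 in immune-like nuclei (21.8%). Stromal-like nuclei had 8 of 19 (13.2%) and endothelial-like nuclei 4 of 16 (10.1%). Intercalated-like nuclei had 3 of 7 (16.5%), the distal class 1 of 11 (10.7%) and principal-like nuclei 0 of 7 (11.4%). The part of free RNA was not tested.

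Over 18 profiles, 9 classes in each library, the genes most like each member among 12181 were named by Pearson r of log2(CPM + 1), as a description of profiles that share libraries and depth. They were Mfap3l (0.930) and Phyh (0.927) for Itgb6, Col4a3 (0.933) and Magi2 (0.914) for Dcdc2a, and Ppp2r1a (0.910) and Clstn1 (0.889) for Sox4. Spp1 had Rasgef1b (0.878) and Gabarapl1 (0.861), Clu had Slc8a1 (0.875) and Cadps2 (0.863), and Cdh6 had Slc45a3 (0.814) and Igsf9b (0.809). The rarer transcripts gave weaker matches for the most part: Lcn2 had Syt3 (0.796) and Chst9 (0.795), Havcr1 had Cacna2d3 (0.763) and Fcamr (0.756), and Sox9 had Copa (0.846) and Albfm1 (0.653).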

How the data were processed

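The authors deposited raw UMI counts per gene and barcode, per the file headers, made with Cell Ranger (7.0.1 per the file headers, 7.1.0 per the submitters' processing notes) on mm10. The intron setting and barcode calling are not given in the sources used here. Positions came from GENCODE M21 (32158 of 32285 identifiers found).

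Barcodes under 200 genes or over 10% mitochondrial UMIs were dropped (112 nephrectomy, 109 sham). Scrublet's own threshold called 1 nephrectomy and 0 sham nuclei, so nuclei in the highest 3% of scores per library and 2 clusters with at least 20% such nuclei were removed (146 nephrectomy, 140 sham). Clustering used the 2000 most variable genes, 30 components, 15 neighbours per nucleus and the Leiden method at resolution 1, without the members, list genes (172 in all), mitochondrial and ribosomal genes. It gave 20 clusters, and mixed ones were split again at resolution 0.5. To be named, a cluster had to show 3 or more markers, each 2-fold up and in 5% of nuclei or more, with no other family leading the top 10 genes. The doublet and naming rules were set after looking at the data, and 234 nephrectomy and 433 sham nuclei stayed unnamed. The members, markers and lists were chosen with earlier results of these data known. The 9 classes that held 30 or more nuclei per library were compared.

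UMIs were summed per class, with exact Poisson intervals for CPM, conditional binomial for ratios, Clopper-Pearson for shares and Newcombe for differences (95%). A gene with 0 UMIs was set against a floor of 3. For shares each nucleus was thinned to 2000 UMIs, leaving out 577 nephrectomy and 685 sham nuclei. From each list the 2 highest and 2 lowest ratios could be named, and for each member the 2 most similar profiles. Slc34a1 was chosen after its values were seen. With 1 library per group no test across animals was possible, and no p-value is given. The method was tested on simulated data. Clusters came from scanpy 1.11.5 (anndata 0.12.19) with leidenalg 0.10.2 and igraph 0.11.9, on scikit-learn 1.9.0. Intervals used scipy 1.17.1 with pandas 2.3.3 and numpy 2.4.6 in Python 3.11.15, and plots matplotlib 3.10.9. TMM factors came from edgeR 4.0.16 in R 4.3.3.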

Additional observations from a re-analysis of the deposited data

Results flagged for a closer look

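Clu differed in opposite directions between segments. Its ratio of nephrectomy to sham CPM was 2.37 in principal-like, 2.72 in thick ascending limb-like and 1.37 in proximal tubule-like nuclei, and 0.834 in distal convoluted or connecting tubule-like nuclei, each with an interval without 1. The difference between segments was not tested. In proximal tubule-like nuclei the share with a Clu UMI was not above that in endothelial-like nuclei, so that value is uncertain. At 2000 UMIs per nucleus Clu was found in 18.1% of 309 nephrectomy and 17.6% of 176 sham nuclei of the distal class, a difference of 0.509 points (-6.90 to 7.30).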

How the results depend on the processing

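No called value changed sign under the alternatives run: TMM or median-of-ratios scaling (shifts of at most 0.0169 on the log2 scale), equal weight per nucleus, thinning, doublets kept, other UMI minimums, a fold of 2, other Leiden resolutions, shared clusters with equal weight, and other depths or draws. Of the summary values 108 stayed close and 23 moved, and of the single-gene values 569 and 91. A stricter fold or UMI minimum lowers counts by construction, and other causes were not tested. A fold of 2 gave 3 whole-library members higher (6 at 1.5-fold), 0 lower in thick ascending limb-like nuclei (1), and in proximal tubule-like nuclei 6 failed-repair genes higher and 2 lower (11 and 4) and 1 identity gene higher and 0 lower (2 and 5). A minimum of 50 UMIs gave 2 proximal tubule members higher (4) and 7 failed-repair genes higher. Thinning to 2000 UMIs gave 2 proximal tubule members lower (1) and 5 failed-repair genes higher. Equal weight per nucleus gave 2 failed-repair genes lower. Keeping doublets gave 4 identity genes higher. Without the Vcam1-side and parietal epithelial-like nuclei, 4 failed-repair genes were higher over the whole library (10 with them), 1 cytoskeletal gene was higher (2) and 1 lower (0), and 2 progenitor-type genes were higher (5). Several failed-repair genes and the progenitor-type gene Ncam1 were markers that named the removed classes, so these drops are not independent of the naming. Members with a larger share of proximal tubule-like nuclei numbered 2 with doublets kept, 3 at 4000 UMIs, 2 in another draw and 4 without thinning (1 otherwise), and those with a smaller share 2 at Leiden resolution 2 and 2 at 1000 UMIs (1 otherwise). Resolution 2 also gave 0 thick ascending limb members lower, and no thinning gave 5 with a larger share there (3). Shares over all genes were not computed at these alternative settings, and without thinning the nephrectomy library was deeper. The counts at those settings are therefore not read as results about the members. The difference in nuclei with at least 3 members (1.98 points) was 0.345 without Spp1 and Itgb6, 0.708 without the Vcam1 side and 0.380 at 1000 UMIs (-0.115 to 0.939). The first 2 were chosen after seeing the data. It was 0.927 with doublets kept (-0.192 to 2.06), 1.32 in another draw, 1.86 at 4000 UMIs and 2.78 without thinning. No paired analysis was possible because each group has 1 library, and for the same reason no replicate could be left out. Rare members (Havcr1, Krt20, Sox9, Lcn2) rest on few UMIs.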
